A study of Homo sapiens with 2 samples.

Results

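The nuclear-encoded subunits of respiratory complexes II to V were examined in HCT116, an epithelial cell line from a colorectal carcinoma. Complex II (succinate dehydrogenase) passes electrons from succinate to ubiquinone, and complex III (the cytochrome bc1 complex) passes them on to cytochrome c. Complex IV (cytochrome c oxidase) hands them to oxygen, and complex V (ATP synthase) makes ATP from the proton gradient that complexes III and IV help to build. Most subunits of these complexes are encoded in the nucleus, and a few hydrophobic core subunits are encoded in mitochondrial DNA. The genes were taken by symbol: SDHA, SDHC and SDHD for complex II, CYC1 and symbols starting with UQCR for complex III, symbols starting with COX4 to COX8 for complex IV, and symbols starting with ATP5 for complex V. This gave 48 genes of 18132 with a probe set of their own, of which 3 belonged to complex II, 9 to complex III, 17 to complex IV and 19 to complex V. The subunit genes SDHB and UQCRFS1 were not analysed here.

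The study held 2 arrays and asked how RAP1 affects colorectal cancer cells. The shRAP1 array came from a culture infected with a lentivirus carrying a single short hairpin RNA against RAP1, numbered 4 by the submitters. The shNC array came from a culture infected with a negative-control hairpin virus. Both cultures were infected at a multiplicity of infection of 20 (infectious virus particles per cell) for 72 h. With 1 array per group there was no replicate, so no test was possible and every difference below describes these 2 cultures. Differences are shRAP1 minus shNC of log2 intensity. Since the arrays measured RNA of whole cultures, less RNA per cell and fewer cells of a kind could not be told apart.

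TERF2IP, the telomere protein also called RAP1, had an intensity of 624 in shRAP1 and 1311 in shNC, a difference of −1.07. The GTPase genes of the same name, RAP1A and RAP1B, differed by −0.18 and −0.10. All 7 epithelial markers lay above the intensity floor described next. Of 10 markers of leukocytes, fibroblasts and endothelium with a probe set of their own, only VWF did, at 125 in shRAP1 and 129 in shNC. The leukocyte marker PTPRC stood at 9.25 in shRAP1 and 11.4 in shNC. The log2 values of the arrays correlated at 0.997 across probe sets. Polyadenylated RNAs of the dap, lys and phe controls, added as technical standards, had median differences of −0.30, −0.41 and −0.29, and thr had 0.41. These were larger in size than the difference of any measured subunit gene of complexes II to V, and their part in the results was not tested.

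Each gene was read from its brightest probe set, and a gene was taken as measured if it reached 78.0, the median of all probe set values, on at least 1 array. Of the 48 genes, 41 passed this floor and 7 did not. The floor fell in a wide gap, since COX6A2, just below it, had 54.9 in shRAP1 and 59.8 in shNC, while UQCRB, the dimmest gene above it, had 872 in shRAP1 and 940 in shNC.

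**Figure D1:**
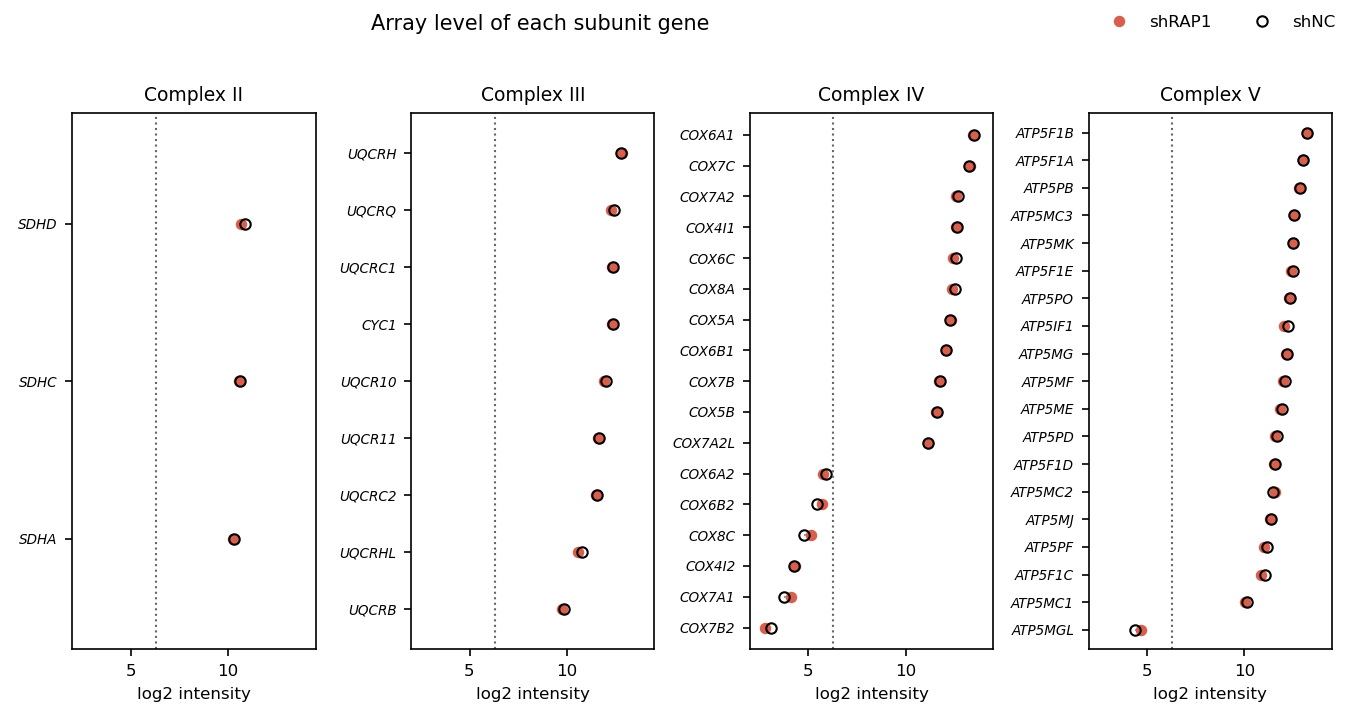
Log2 intensity (horizontal axis) of all 48 subunit genes in shRAP1 (filled points) and shNC (open points), by complex; the dotted line is the floor at 6.29. The 41 measured genes lie far to the right of the floor with nearly overlapping points, and 6 isoforms of complex IV and ATP5MGL lie to its left; positions of different genes are not comparable, since each rests on its own probes.

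Subunit genes of complexes II to V were slightly lower in shRAP1, and nearly all in the same direction. Of the 41 measured genes, 36 were lower and 5 were higher in shRAP1, whereas 46.8% of all 10437 measured genes were lower and 53.2% higher. The median difference was −0.051, a level of 96.5% of shNC, and the SD across the 41 genes was 0.069. Over all measured genes the median was 0.010, with an SD of 0.16. The differences were small as well as one-sided. A decrease of at least 1.1-fold was seen for 6 genes, which is 6 of 41 against 14.4% of all measured genes, a share near the background. An increase of that size was seen for 0 of 41 genes, against 19.5% of all measured genes. At 1.2-fold, 0 genes were lower and 0 higher, where 3.58% and 4.96% of all measured genes were. No subunit gene reached 2-fold, and 0.0383% of all measured genes did.

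Bright probe sets as a whole tended lower in shRAP1, and nearly all measured subunit genes were bright. Among the 2436 measured genes within the subunits' range of mean intensity, 56.9% were lower, and the 2395 of these that were no subunits had a median of −0.017. The SD over the 2436 genes was 0.13, less than over all measured genes. Increases of at least 1.1-fold were also rarer among them, with 272 of 2436 against 19.5% of all measured genes. Decreases of that size were not rarer, with 366 of 2436 against 14.4%. At 1.2-fold, 62 of the 2436 were lower and 52 higher. After a lowess trend on mean intensity was subtracted, the subunit median was −0.030, and 33 of 41 genes were lower, against 50.4% of all measured genes after the same step. Single genes stood inside the spread of their surroundings: the size of the difference relative to the SD of the 500 genes nearest in brightness was at most 1.94, for ATP5IF1.

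**Figure D2:**
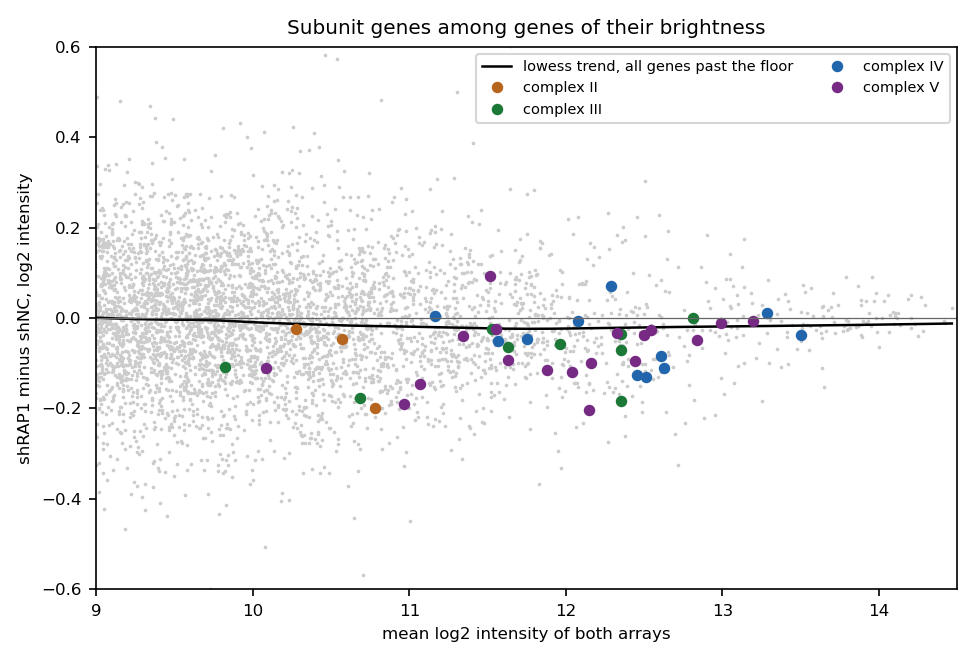
Difference in log2 intensity, shRAP1 minus shNC (vertical axis), against mean log2 intensity of both arrays (horizontal axis), with all measured genes of that brightness in grey, their lowess trend as a line and the subunit genes coloured by complex. Most coloured points lie between zero and −0.20, below the trend line and within the grey cloud.

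Several probe sets per gene gave a check within the arrays, though not between cultures. The 41 genes had 96 probe sets above the floor, of which 86 were lower and 10 higher in shRAP1. Among the 29 genes with 2 or more, all probe sets were lower for 24, all were higher for 1, UQCRH, and both signs occurred for 4, which were UQCRQ, COX7A2L, ATP5F1C and ATP5MJ. These 4 were named after their values were seen. For the other 12 genes a single probe set stood above the floor. The same counts were not made over all measured genes, so these have no background to be read against. Some probe sets of a gene also share a source sequence, and all were read from the same 2 RNA samples.

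**Figure D3:**
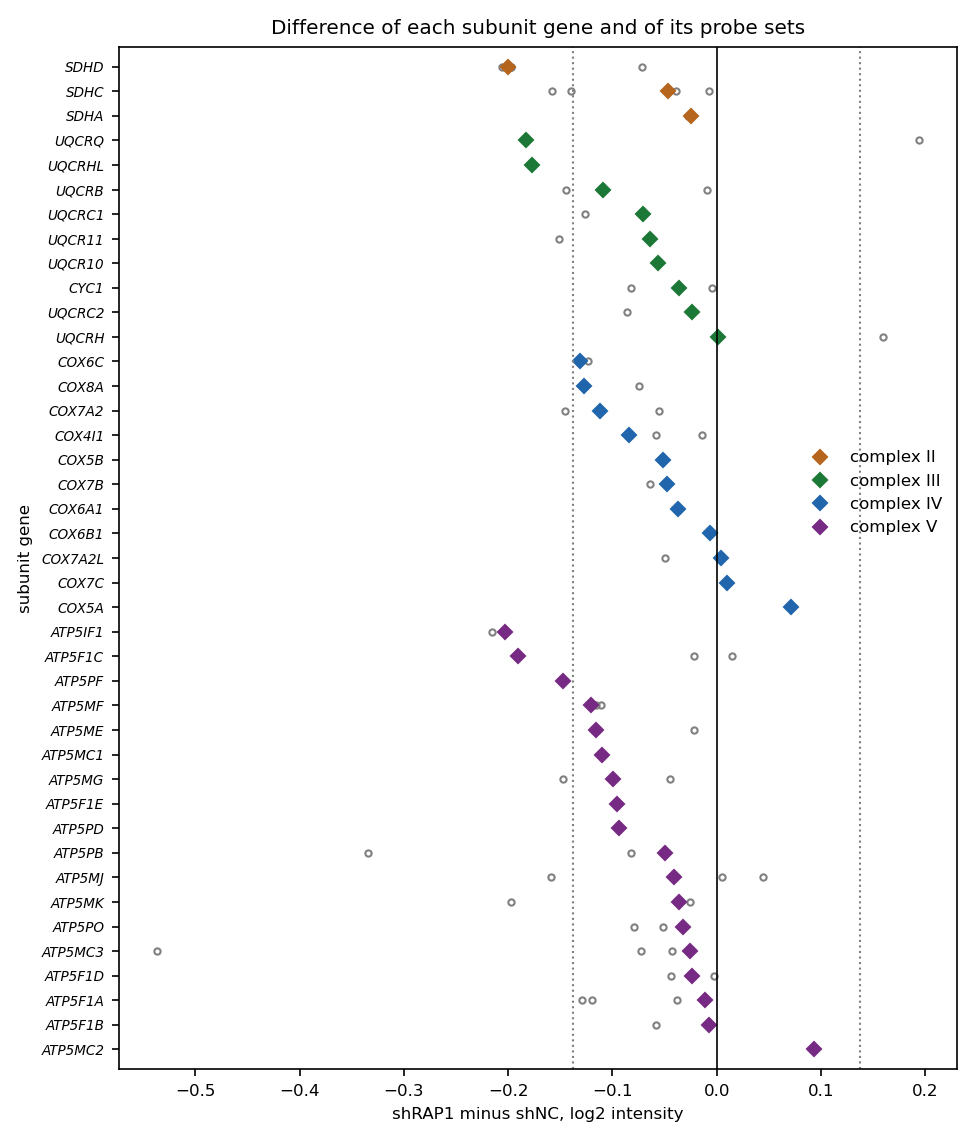
Difference in log2 intensity, shRAP1 minus shNC (horizontal axis), of the 41 measured subunit genes by their brightest probe set (diamonds, coloured by complex) and of all their probe sets above the floor (open circles); dotted lines mark 1.1-fold. Diamonds of 36 genes lie left of zero, and 6 lie left of the line for a 1.1-fold decrease.

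Respiratory subunit promoters are known for sites of NRF1 (nuclear respiratory factor 1), of ETS factors such as GABP (nuclear respiratory factor 2), of YY1 and of SP1. RefSeq start-site windows of assembly GRCh38.p14 were matched by symbol for 36 of the 48 genes, and the 250 bases before each start were searched on both strands. To show what was searched, the windows of the gene with the lowest difference in each complex are given, followed by that of COX5A, the highest, taken among measured genes with a single window. They lie on chr11:112086623-112086872 (SDHD, plus strand), chr5:132866392-132866641 (UQCRQ, plus), chr11:63974370-63974619 (COX8A, plus), chr1:28235874-28236123 (ATP5IF1, plus) and chr15:74938074-74938323 (COX5A, minus). Each reads 5′ to 3′ towards the start, and capitals mark matches to the NRF1, ETS, YY1 and SP1 letters spelled out after the windows.
SDHD: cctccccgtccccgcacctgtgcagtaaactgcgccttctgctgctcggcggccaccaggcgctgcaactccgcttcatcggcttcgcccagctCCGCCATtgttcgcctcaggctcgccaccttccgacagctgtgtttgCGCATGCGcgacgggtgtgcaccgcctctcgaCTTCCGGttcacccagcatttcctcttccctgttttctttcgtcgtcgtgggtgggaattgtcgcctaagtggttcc
UQCRQ: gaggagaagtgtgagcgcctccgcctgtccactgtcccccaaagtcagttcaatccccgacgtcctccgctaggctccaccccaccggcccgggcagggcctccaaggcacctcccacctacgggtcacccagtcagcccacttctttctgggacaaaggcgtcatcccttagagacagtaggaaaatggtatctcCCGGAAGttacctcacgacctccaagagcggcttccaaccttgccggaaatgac
COX8A: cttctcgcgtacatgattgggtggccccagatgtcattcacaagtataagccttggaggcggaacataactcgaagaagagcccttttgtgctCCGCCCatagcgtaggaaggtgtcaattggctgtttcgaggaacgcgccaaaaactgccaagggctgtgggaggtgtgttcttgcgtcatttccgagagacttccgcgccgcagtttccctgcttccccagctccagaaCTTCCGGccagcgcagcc
ATP5IF1: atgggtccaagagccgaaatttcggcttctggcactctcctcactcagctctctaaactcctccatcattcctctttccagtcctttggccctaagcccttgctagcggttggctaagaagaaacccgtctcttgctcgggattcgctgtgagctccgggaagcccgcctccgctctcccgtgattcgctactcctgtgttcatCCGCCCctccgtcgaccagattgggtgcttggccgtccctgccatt
COX5A: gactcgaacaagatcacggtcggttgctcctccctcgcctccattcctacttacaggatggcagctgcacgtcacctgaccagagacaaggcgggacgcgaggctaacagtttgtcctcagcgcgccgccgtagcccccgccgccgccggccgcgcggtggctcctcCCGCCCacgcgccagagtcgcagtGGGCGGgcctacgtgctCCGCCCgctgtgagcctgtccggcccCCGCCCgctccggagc
The SDHD window held the NRF1 letters on both strands, at 109 to 103 and at 108 to 102 bases before the start, the ETS letters 77 to 71 bases before it and the YY1 letters 156 to 150 bases before it. ETS letters also lay 54 to 48 bases before the UQCRQ start and 18 to 12 bases before the COX8A start. The ATP5IF1 window held the SP1 letters alone, and the COX5A window held them at 4 places. No match of one motif overlapped that of another in these 5 windows.

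The NRF1 letters GCATGCG stood in the windows of 7 of 36 subunit genes (19.4%), against 7.09% of 8660 measured genes and 4.16% of all 27305 genes in the table. A longer spelling of the NRF1 site, with a free base at its centre, stood in 9 of 36 (25.0%), against 12.8% of measured genes, and both spellings occurred in 3 of the genes. The ETS letters CCGGAAG stood in 12 of 36 (33.3%), against 19.7% of measured genes and 10.2% of all genes. GCATGCG or the ETS letters occurred in 15 subunit genes (41.7%) and in 25.2% of measured genes, and both occurred in 4, which were SDHD, COX5B, COX6A1 and ATP5PF. The YY1 letters ATGGCGG stood in 2 subunit genes (5.56%), SDHD and ATP5PF, against 5.48% of measured genes. The SP1 letters GGGCGG went the other way, with 19 of 36 (52.8%) against 76.6% of measured genes. A gene counted once if any of its windows matched, and 5 of the 36 had more than 1 window. The 7 measured genes with GCATGCG had a median difference of −0.12 (6 lower), and the 25 without it had −0.050 (21 lower). With the longer NRF1 spelling the medians were −0.067 over 8 genes (8 lower) and −0.051 over 24 genes (19 lower), so the gap between them depended on the spelling. For the ETS letters the medians were −0.058 over 12 genes (11 lower) and −0.053 over 20 genes (16 lower). With a longer ETS spelling they were −0.079 over 10 genes and −0.049 over 22 genes, so this gap depended on the spelling too. In all, 11 spellings of 7 motifs were looked at. GCATGCG was taken as the NRF1 letters after the counts and medians of the longer spelling had been seen. Its share of subunit genes and its larger gap between medians are therefore selected values. With each gene taken as the median of its probe sets, the gap was gone, at −0.051 with GCATGCG and −0.057 without it. Of the other spellings, the longer ETS one stood in 10 of 36 subunit genes (27.8%) against 8.76% of measured genes. The longest NRF1 and YY1 ones stood in 1 gene each (2.78%), against 1.32% and 0.808% of measured genes. The CCAAT box stood in 17 subunit genes (47.2%) against 41.7% of measured genes, the TATA box in 4 (11.1%) against 7.71%, and the E-box in 3 (8.33%) against 11.7%. These matches describe letters in a window and not bound sites.

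**Figure D4:**
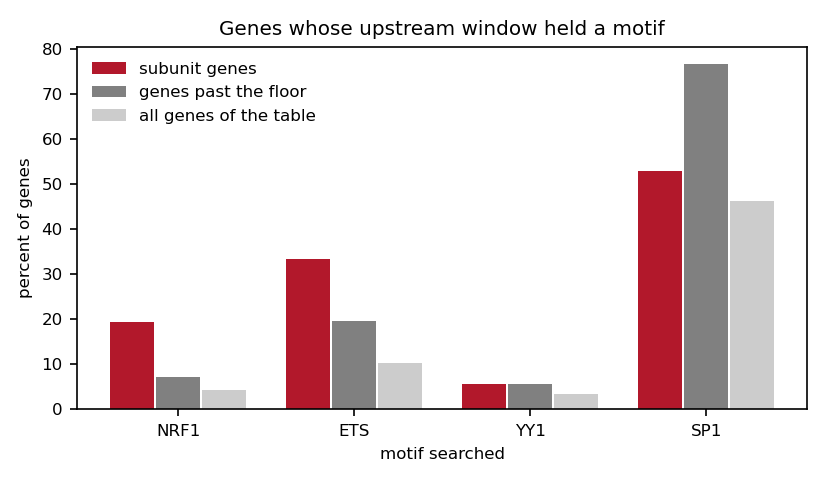
Percent of genes (vertical axis) whose upstream window of 250 bases held the letters of each motif (horizontal axis), for subunit genes, measured genes and all genes of the promoter table. The bars of subunit genes stand above measured genes for NRF1 and ETS (19.4% and 33.3%) and below them for SP1 (52.8% against 76.6%). NRF1 is drawn for GCATGCG alone, taken after the counts of the longer spelling (25.0% against 12.8%) had been seen.

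Complex II had 3 measured genes, all lower, with a median of −0.046; without the less specific probe sets, named _x_at and _s_at, 1 gene was left, at −0.14. SDHD, a small membrane anchor that helps to hold the haem and bind ubiquinone, had an intensity of 1641 in shRAP1 and 1885 in shNC, a difference of −0.20. Its window above was the only printed one with both NRF1 and ETS letters. All 5 SDHD probe sets were lower, from −0.21 to −0.071, and 2 of them held identical values, so they count as the same measurement. SDHC, the other membrane anchor, had 1496 in shRAP1 and 1545 in shNC, a difference of −0.046, with 5 probe sets between −0.16 and −0.0078. SDHA, the flavoprotein that oxidises succinate, had 1229 in shRAP1 and 1250 in shNC, a difference of −0.025. Within the complex the catalytic SDHA thus stood at 98.3% of shNC and SDHD at 87.1%. Probe sets shared between SDHA and its pseudogenes, which were used for no gene, differed by 0.040 and −0.076.

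In complex III, 8 of the 9 measured genes were lower and 1 was higher, and the median was −0.064. Its core and cytochrome genes lay between −0.071 and −0.023. UQCRC1, a core protein on the matrix side, had 5104 in shRAP1 and 5361 in shNC (difference −0.071), and the partner core protein gene UQCRC2 had 2929 in shRAP1 and 2977 in shNC (−0.023). CYC1, the haem protein cytochrome c1 that passes electrons to cytochrome c, had 5161 in shRAP1 and 5291 in shNC (−0.036). The 6 small-subunit genes ran from −0.18 to 0.0010, with a median of −0.087, against −0.036 for the 3 core and cytochrome genes. This order turned without the less specific probe sets, at −0.057 over 5 small-subunit genes and −0.071 over the 3 core and cytochrome genes.

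UQCRQ, a small subunit next to the ubiquinone site, had the lowest value of complex III, with 4898 in shRAP1 and 5562 in shNC, a difference of −0.18. Its other probe set above the floor, which was dim at 118 in shRAP1 and 103 in shNC, went the opposite way at 0.19, so the direction for UQCRQ rested on the bright probe set. UQCRB, which also contributes to ubiquinone binding, had 872 in shRAP1 and 940 in shNC, a difference of −0.11. UQCR11 had 3099 in shRAP1 and 3240 in shNC (−0.064), and UQCR10 had 3912 in shRAP1 and 4069 in shNC (−0.057), both being small membrane subunits. UQCRH, the hinge protein between cytochrome c1 and cytochrome c, had 7183 in shRAP1 and 7178 in shNC, a difference of 0.0010, and 0.16 on its dimmer probe set. UQCRHL, a near-identical intronless copy of UQCRH, had 1545 in shRAP1 and 1747 in shNC, a difference of −0.18. Both values are uncertain as gene values, because probes of the copies can take up RNA of either gene. Without UQCRHL the median over the other 40 measured subunit genes was −0.051.

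In complex IV, 11 of 17 genes were measured, 8 lower and 3 higher, and the median was −0.047. No gene of this complex reached a 1.1-fold decrease. COX6C, a small membrane subunit, had 5595 in shRAP1 and 6126 in shNC, a difference of −0.13, and −0.12 on its other probe set above the floor. COX8A, the broadly expressed form of the smallest subunit, had 5376 in shRAP1 and 5871 in shNC (−0.13). COX7A2, the broadly expressed form of subunit VIIa, had 6096 in shRAP1 and 6586 in shNC (−0.11), with 4 probe sets between −0.15 and −0.055. COX4I1, the subunit through which ATP regulates the enzyme, had 6076 in shRAP1 and 6442 in shNC (−0.084), and all 3 of its probe sets were lower.

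The other 7 measured genes of complex IV lay between −0.051 and 0.071. COX5B had 2985 in shRAP1 and 3093 in shNC (−0.051), COX7B had 3392 in shRAP1 and 3506 in shNC (−0.047), and COX6A1 had 11445 in shRAP1 and 11741 in shNC (−0.037). COX6B1, which bridges the monomers of the dimeric enzyme, had 4320 in shRAP1 and 4338 in shNC, a difference of −0.0060. COX7A2L, which ties complexes III and IV into supercomplexes, had 2301 in shRAP1 and 2295 in shNC (0.0037), and −0.049 on its other probe set. COX7C differed by 0.010. COX5A, a matrix-side subunit that binds next to COX4I1, had 5138 in shRAP1 and 4890 in shNC, and its 0.071 was the highest difference of the complex, on a single probe set. COX5A and COX4I1 thus stood on opposite sides of zero.

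The tissue-restricted isoforms of complex IV were not measured above the floor on either array. COX4I2, a form known from lung, had 20.3 in shRAP1 and 19.2 in shNC. The forms known from heart and skeletal muscle, COX6A2 and COX7A1, had 54.9 and 17.4 in shRAP1 and 59.8 and 13.5 in shNC. The forms known from testis, COX6B2, COX7B2 and COX8C, had 51.5, 6.94 and 35.1 in shRAP1 and 43.9, 8.57 and 27.8 in shNC. For each isoform pair, therefore, the broadly expressed member was above the floor and the restricted member was below it in both cultures, and no isoform crossed the floor with the knockdown.

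In complex V, 18 of 19 genes were measured, 17 lower and 1 higher, and the median was −0.072. ATP5IF1, the inhibitor that stops the enzyme from splitting ATP when the proton gradient fails, had 4237 in shRAP1 and 4877 in shNC. Its difference of −0.20 was the lowest of all 41 measured subunit genes, and 3 probe sets above the floor lay between −0.22 and −0.20. It ranked 764 from the lowest among 10437 genes. ATP5F1C, the gamma subunit that turns inside the catalytic head, had 1871 in shRAP1 and 2135 in shNC (−0.19). Its other probe sets differed by −0.022 and 0.015, so the size for ATP5F1C rested on 1 probe set, and the median of its 3 probe sets was −0.022. ATP5PF, a peripheral stalk subunit, had 2045 in shRAP1 and 2264 in shNC (−0.15), and ATP5MF, a small membrane subunit, had 4045 in shRAP1 and 4396 in shNC (−0.12).

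By position in the enzyme, the 5 genes of the catalytic head and central stalk were all lower, with a median of −0.024, but after the lowess trend was subtracted 3 of the 5 were lower and the median was −0.00055. The catalytic alpha and beta subunit genes ATP5F1A and ATP5F1B were at −0.011 and −0.0074, ATP5F1D was at −0.024 and ATP5F1E at −0.096. ATP5F1A had 4 probe sets above the floor, from −0.13 to −0.011 with a median of −0.079, so its brightest one gave the value nearest zero. With the lowess trend subtracted ATP5F1A was at 0.0078 and ATP5F1B at 0.011. The 4 peripheral stalk genes, which hold the head still against the rotor, were ATP5PB, ATP5PD, ATP5PF and ATP5PO, and they lay between −0.15 and −0.033 with a median of −0.072. The 5 measured small membrane genes, ATP5ME, ATP5MF, ATP5MG, ATP5MJ and ATP5MK, lay between −0.12 and −0.036 with a median of −0.099. With each gene as the median of its probe sets the order of these groups turned, at −0.088 for the peripheral stalk and −0.069 for the small membrane genes. The sixth small membrane gene, ATP5MGL, a copy of ATP5MG, was below the floor at 26.0 in shRAP1 and 20.4 in shNC.

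The genes of the c-ring, the rotor that protons drive through the membrane, did not run together. ATP5MC1, ATP5MC2 and ATP5MC3 encode the same mature protein with different import sequences. ATP5MC1 had 1043 in shRAP1 and 1126 in shNC, a difference of −0.11. ATP5MC2 had 3026 in shRAP1 and 2837 in shNC, and its 0.093 was the highest difference of all 41 measured subunit genes, on its only probe set. ATP5MC3 had 5933 in shRAP1 and 6039 in shNC, a difference of −0.026. Its 4 probe sets above the floor were all lower, and the dimmest of them, at 104 in shRAP1 and 151 in shNC, differed by −0.54.

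Other genes of the respiratory chain were set beside these subunits. Complex I, the entry point for electrons from NADH, had 36 measured subunit genes. Their median was −0.10, with 32 lower and 4 higher. NDUFB2 had 1786 in shRAP1 and 2242 in shNC (−0.33), NDUFV2 had 2325 in shRAP1 and 2802 in shNC (−0.27), and NDUFS7 had 1160 in shRAP1 and 1389 in shNC (−0.26). CYCS, cytochrome c itself, had 6725 in shRAP1 and 7454 in shNC, a difference of −0.15 with all 3 probe sets lower. Of the subunits encoded in mitochondrial DNA, those of complexes IV and V were represented by 3 probe sets. The COX3 probe sets differed by 0.080 and 0.0054, and the one that carries both ATP6 and COX1 differed by −0.0033. Polyadenylation of mitochondrial RNA differs from that of nuclear RNA, and the labelling kit used here targets poly(A) tails.

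Assembly factors, which insert cofactors and join subunits without staying in the complex, stood on both sides of zero. The 37 measured had a median of −0.035, with 22 lower and 15 higher, and −0.074 with the higher floor at the 75th percentile. For complex II, 2 of 4 were lower, and SDHAF1 was highest with 344 in shRAP1 and 298 in shNC (0.21), while SDHAF4 and SDHAF2 were at −0.027 and −0.022. For complex III, 3 of 6 were lower, with LYRM7 at −0.24, UQCC3 at −0.18 and BCS1L at −0.080. For complex IV, 15 of 23 were lower, among them CMC1 with 588 in shRAP1 and 735 in shNC (−0.32) and COA5 at −0.25, while COX10, of haem a synthesis, was at 0.21. For complex V, 2 of 4 were lower, with ATPAF1 at −0.21, TMEM70 at −0.11 and ATP23 at 0.035. Of the assembly factors named here, BCS1L, COA5 and ATP23 each had a dimmer probe set of the other sign, at 0.13, 0.033 and −0.023. The 11 measured regulators of respiratory genes had a median of 0.028, 5 being lower and 6 higher, and its sign turned with other settings: −0.0066 with the lowess trend subtracted, −0.030 with a higher floor and −0.0024 as a mean. TFAM, which packages and transcribes mitochondrial DNA, had 365 in shRAP1 and 428 in shNC, a difference of −0.23 with 3 probe sets between −0.27 and −0.20. ESRRA and MYC were at 0.12 and 0.11. NRF1, whose letters were searched above, was at 0.077 on its brightest probe set and at −0.10 on its other one above the floor. The GABP subunit gene GABPA was at −0.071.

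**Figure D5:**
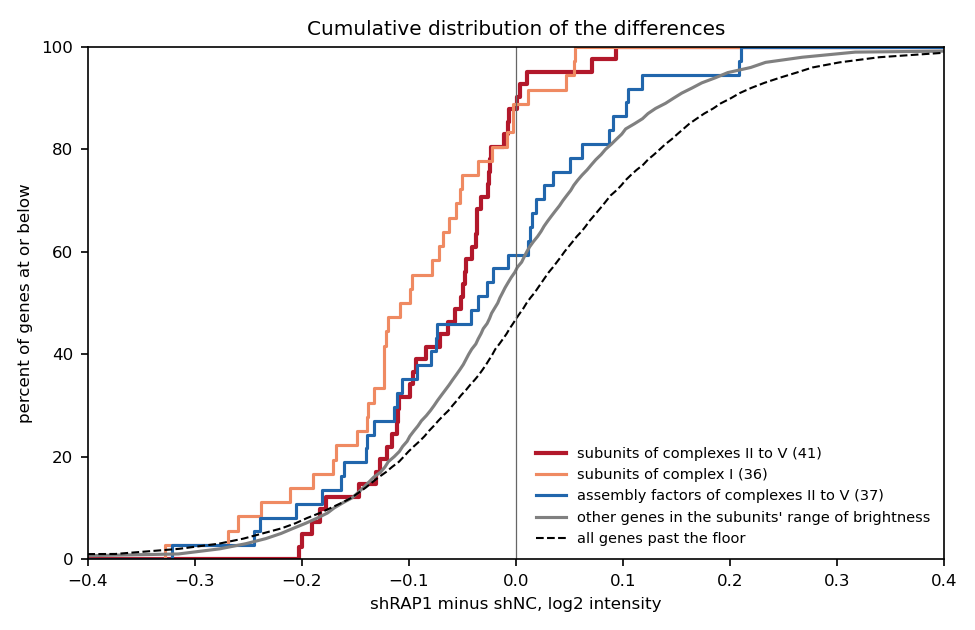
Percent of genes at or below each difference in log2 intensity, shRAP1 minus shNC (horizontal axis), for the 41 measured subunits of complexes II to V, the 36 of complex I, the 37 assembly factors, other genes in the subunits' range of brightness and all measured genes. The curves of both subunit sets cross zero near 88%, that of assembly factors at 59.5%, and the curve of all measured genes at 46.8%.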

How the data were processed

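Gene expression was measured on 2 Affymetrix arrays, 1 of shRAP1 cells and 1 of shNC cells. Per the labels' protocols, Trizol-extracted total RNA was turned into biotin-labelled cRNA with a 3′ in vitro transcription kit, which starts from poly(A) tails. The deposited table gives an intensity per probe set. The values reach 25726 on both arrays and so are on a linear scale. RMA, a method of background correction, quantile normalisation and probe summary, is named in the submitters' processing notes. Its version, and which arrays were normalised together, is not given in the sources used here. Quantile normalisation removes differences in total RNA, so all differences are relative to other genes on the array.

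Log2 was taken with no pseudocount, since the design had assumed log2 values. There were 49293 non-control probe sets. Of these, 44988 were annotated with 1 gene symbol and were used, while 1832 with several and 2473 with none were not. Checking symbols through the RefSeq table of GRCh38.p14 changed 0 of them. A gene was its brightest such probe set by mean log2 intensity. It was measured if either array reached 78.0 (6.29 in log2), the median over both arrays without control probe sets. Medians per array were 78.9 in shRAP1 and 77.0 in shNC.

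No test was possible with 1 array per group, and precision is limited by the number of arrays. Counts use fixed sizes of 1.1-fold, 1.2-fold and 2-fold. The subunit genes, lists and motifs were chosen with earlier results of these data known. Of 11 motif spellings looked at, 5 were described in full, chosen with their counts in subunit promoters in view. All genes of complexes II and III were named with both values, and in complexes IV and V the 4 largest differences in size and the isoform families. For the other lists, the 3 largest in size were named. Alternatives changed the probe sets that stand for a gene, the floor, the centring (lowess, span 0.3) and the summary. The computation was tested on simulated data. The software was Python 3.11.15, with statsmodels 0.14.6 for lowess, scipy 1.17.1, pandas 2.3.3, numpy 2.4.6 and, for figures, matplotlib 3.10.9.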

Additional observations from a re-analysis of the deposited data

How the results depend on the processing

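No paired analysis was possible because each group held 1 array. The medians and counts of the subunit genes and the difference of each were recomputed with a gene as the median of its probe sets, with the floor removed or raised to the 75th percentile, with the less specific probe sets left out (names in _x_at and _s_at), with lowess centring and with the mean of a list. The same was done for the medians of the other lists, of positions in complexes III and V and of genes with NRF1 or ETS letters, an addition made after seeing the data. The median over all subunit genes (−0.051) was below zero under each of these, from −0.069 with the mean to −0.030 with lowess centring. The medians of the complexes were below zero too. Complex II ran from −0.14, with 1 gene left near the floor without the less specific probe sets, to −0.030. Complex III ran from −0.080 to −0.040, complex IV from −0.051 to −0.024 and complex V from −0.074 to −0.050. Lowess centring moved the count of higher genes to 8 of 41, against 5. With no floor, 10 of 48 genes were higher and 4 of them by at least 1.1-fold, against 0 with the floor; all 4 were below it. Without the less specific probe sets 29 genes had a value, with 1 higher by at least 1.1-fold (UQCRH at 0.16), 1 gene lower in complex II against 3, and 8 lower in complex V against 17, since fewer genes were left. Among single genes, UQCRQ changed sign to 0.0053 and COX7A2L to −0.023 as the median of their probe sets, and ATP5F1C was at −0.022 in that setting. Lowess centring turned ATP5F1A (0.0078), ATP5F1B (0.011) and COX6B1 (0.017) above zero. Without the less specific probe sets COX7A2L turned to −0.049 and ATP5MJ to 0.0049, and ATP5MK was at −0.20, against −0.036. Among the added medians, that of the regulators (0.028) turned to −0.030 with the higher floor, −0.0066 with lowess centring and −0.0024 as the mean, and that of the c-ring (−0.026) to 0.025 without the less specific probe sets, with 2 genes left. Lowess centring moved the core and cytochrome genes of complex III to −0.015 and the head genes of complex V to −0.00055. Without the less specific probe sets the core and cytochrome genes were at −0.071 and the small-subunit genes of complex III at −0.057, the reverse of their main order. With a gene as the median of its probe sets, the peripheral stalk of complex V was at −0.088 and its small membrane genes at −0.069, also the reverse. Limits of depth were set by the floor, below which 7 genes had no usable difference.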

Other observations

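Some probe sets carry a subunit symbol together with another symbol and were used for no gene. The one shared by ATP5MF and its read-through transcript with PTCD1 had 4535 in shRAP1 and 5193 in shNC, a difference of −0.20, beside −0.12 for ATP5MF itself. Those shared by COX7A2 and TMEM30A differed by −0.074 and 0.055, beside −0.11 for COX7A2.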
